A study of Mus musculus with 24 samples.

Results

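The comparison concerned the injured (ipsilateral) hippocampus of mouse pups subjected to hypoxia-ischemia, which models brain injury around birth, and asked how its transcriptome at 6 h differed from that at 3 h. All ipsilateral libraries of the series were taken, which gave 12 of 24 libraries, 6 at 6 h and 6 at 3 h. At each time there were 2 wild-type (WT) libraries, 2 libraries labelled Neil1-KO and 2 Neil2-KO libraries, from pups whose injury was on postnatal day 10. Neil1 and Neil2 encode DNA glycosylases that remove oxidized bases at the start of base excision repair. Genotype entered the fit as a blocking factor, so each time difference is an average within genotypes. The other 12 libraries, from the contralateral hippocampus at the same times, served as the background. Libraries at 3 h and at 6 h came from different animals, and the age and time of day of the pups cannot be told apart from the time after the insult. The sources used here do not give strain, sex or the deleted part of each gene, nor whether the knockout was confined to a cell type. Every library held bulk tissue, in which fewer cells of a type and less RNA per cell cannot be told apart.

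In the first hours after hypoxia-ischemia, neurons and glia pass through successive waves of transcription. Immediate early genes, which code for transcription factors such as Fos and Egr1, are induced within minutes by synaptic activity and calcium and decline quickly. Chemokines, cytokines, interferon-response genes and genes of reactive astrocytes follow, and microglia and invading leukocytes contribute to them. Neurons of the hippocampus are among the cells most easily lost in this injury.

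The 12 ipsilateral libraries held between 18702928 and 29252067 reads, of which 9.15% to 12.48% fell on lines without a gene name. Values are size-factor normalized read counts, called normalized counts here. The titles name both libraries of a group as biological replicates, so the tests rest on the spread among animals. Neil2 was 0.991 ± 1.42 normalized counts in the Neil2-KO libraries and 19.8 ± 5.25 in WT (SD, n = 4 ipsilateral libraries each). Neil1 stood at 142 ± 18.6 where the label is Neil1-KO and at 114 ± 12 in WT (SD, n = 4 each), so the counts do not show that knockout and the label is used as given. A pair of 6 h libraries stood apart on the principal components. Labelled Neil1-KO replicate 2 at 6 h lay at 74.4 on the first component (30.6% of the variance) and had the lowest summed pan-neuronal markers (92190 normalized counts, against 137200 to 178100 in the other 6 h libraries). WT replicate 2 at 6 h lay at -52.1 on the second component (17.5%) and had little Prox1, a granule neuron factor (335 normalized counts, against 1463 to 2422 in the other 11 libraries). Its summed striatum markers were 3010, against 1493 to 1786 in the other 11 libraries. Tcf7l2, a thalamic marker, was highest in both WT libraries at 6 h, with 940 in replicate 2 and 582 in replicate 1. The remaining ipsilateral libraries had 84.3 to 230.5. Summed thalamus markers were also highest in both, at 6551 and 5349, against 3291 to 4987 in the rest. In WT these levels cannot be told apart from the time. Xist, the RNA of the inactive X chromosome, was high in 3 libraries, all of them replicate 2: labelled Neil1-KO, with 14050 normalized counts at 3 h and 17970 at 6 h, and Neil2-KO at 6 h, with 10110. The other 9 libraries had 3.72 to 16.9. Ttr, abundant in choroid plexus, ran from 74.0 to 26780.

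Between 3 h and 6 h the genes that rose in the injured hippocampus included chemokine, reactive astrocyte and interferon-response genes, and those that fell included immediate early factors and neuronal receptors and channels. Of 18123 genes tested with limma, 1066 (5.88%) were called at a Benjamini-Hochberg adjusted p under 0.05, 588 (3.24%) higher and 478 (2.64%) lower at 6 h. The increases were the larger changes: 135 called genes rose by 2-fold or more and 14 fell by as much. The median size of the log2 difference was 0.65 among genes that rose and 0.43 among those that fell, and over all genes tested the median log2 fold change was -0.011. Counts of list members below can be set against the shares of 3.24% higher and 2.64% lower, and signs against that median. For 245 of the 588 and 85 of the 478, the 6 libraries at 6 h did not overlap the 6 at 3 h. Such separation occurred in 2.46% of all genes tested, upward in 1.6% and downward in 0.855%. The count of calls depended on the libraries: it was 1793 without the pair of libraries that stood apart, and 261 to 1368 when each library was left out in turn. The balance turned in some fits, to 528 higher and 745 lower without labelled Neil1-KO replicate 1 at 6 h and to 949 higher and 1380 lower with all 24 libraries in the fit.

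**Figure D1:**
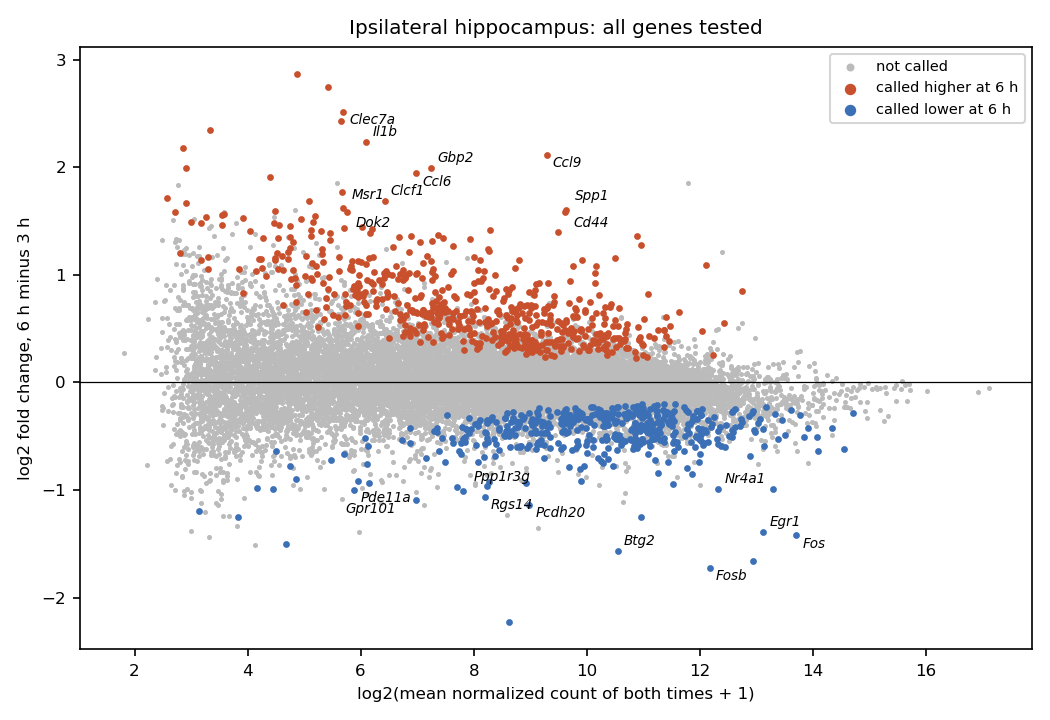
Log2 fold change (6 h minus 3 h, vertical axis) of each of the 18123 genes tested against its mean level over both times (log2 of the mean normalized count + 1). Genes called higher are red (588), genes called lower are blue (478) and the others are grey; the named genes show increases up to 2.51 and decreases down to -1.72.

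The 10 genes named for the largest increases were mostly genes of myeloid cells, chemokines and cytokines: Clec7a, Il1b, Ccl9, Gbp2, Ccl6, Clcf1, Msr1, Spp1, Dok2 and Cd44. A gene was named only where its times did not overlap within any genotype, and the same held for the 10 named decreases. Separation of the times in named genes is thus in part a product of that rule. Clec7a, which encodes the myeloid pattern receptor dectin-1, lay between 5.21 and 20.8 normalized counts at 3 h (median 14.3) and between 37.0 and 194 at 6 h (median 77.2). All 6 libraries at 6 h were above all 6 at 3 h, and Clec7a rose by 2.51 ± 0.32 on the log2 scale (SE, limma adjusted p = 0.00378). Il1b, the inflammatory cytokine interleukin-1 beta, ran from 11.9 to 30.0 at 3 h (median 23.8) and from 51.8 to 209 at 6 h (median 100.5). Its times did not overlap either, with a log2 fold change of 2.23 ± 0.34 (adjusted p = 0.00658). The chemokine gene Ccl9 ran from 132 to 558 normalized counts at 3 h (median 213) and from 704 to 1294 at 6 h (median 982). It rose by 2.12 ± 0.29 (adjusted p = 0.00434). Ccl6, its neighbour in the chemokine family, stood at 28.3 to 76.6 at 3 h (median 51.1) and at 153 to 241 at 6 h (median 195), a rise of 1.94 ± 0.22 (adjusted p = 0.00378). The times were separated in every library for both chemokines.

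Of the other named increases, Msr1, the macrophage scavenger receptor, had a median of 21.2 normalized counts at 3 h (14.6 to 48.2) and of 63.8 at 6 h (49.8 to 144), and rose by 1.62 ± 0.31 on the log2 scale (limma adjusted p = 0.014). Spp1, which encodes the secreted matrix protein osteopontin, had a median of 329 at 3 h (220 to 738) and of 942 at 6 h (762 to 2110), a rise of 1.60 ± 0.29 (adjusted p = 0.0123). Dok2, an adaptor protein of blood and myeloid cells, went from a median of 25.0 (16.4 to 39.7) to 81.6 (60.4 to 98.1), a rise of 1.58 ± 0.20 (adjusted p = 0.00378). None of these 3 genes had overlapping times, which the naming rule favours, and each was called without any 1 of the 12 libraries. Beside them, the 22 microglia identity genes tested gave 1 call (4.55%, against 5.88% of all genes tested): Cd68, a lysosomal protein of phagocytes, rose by 0.62 ± 0.15 (adjusted p = 0.0332). Their median log2 fold change was 0.10, and their summed level was 6067 to 9873 normalized counts at 3 h and 7071 to 15410 at 6 h, the highest in labelled Neil1-KO replicate 2. Cx3cr1, the fractalkine receptor of microglia, differed by 0.81 ± 0.22 (adjusted p = 0.0503), and P2ry12, a purine receptor of resting microglia, by -0.96 ± 0.41 (adjusted p = 0.184). When the pair of libraries that stood apart was left out, 4 microglia identity genes were lower: P2ry12, P2ry13, Tmem119 and Selplg. Of 19 blood and leukocyte markers 10 passed the filter on low values, none of them was called by limma, edgeR or DESeq2 (3 at an unadjusted p under 0.05), and their median was 0.47, with sums of 8086 to 20520 at 3 h and 9676 to 50770 at 6 h (9676 to 20540 without the libraries that stood apart). The part of either cell type in the rise of the myeloid genes was not tested.

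**Figure D2:**
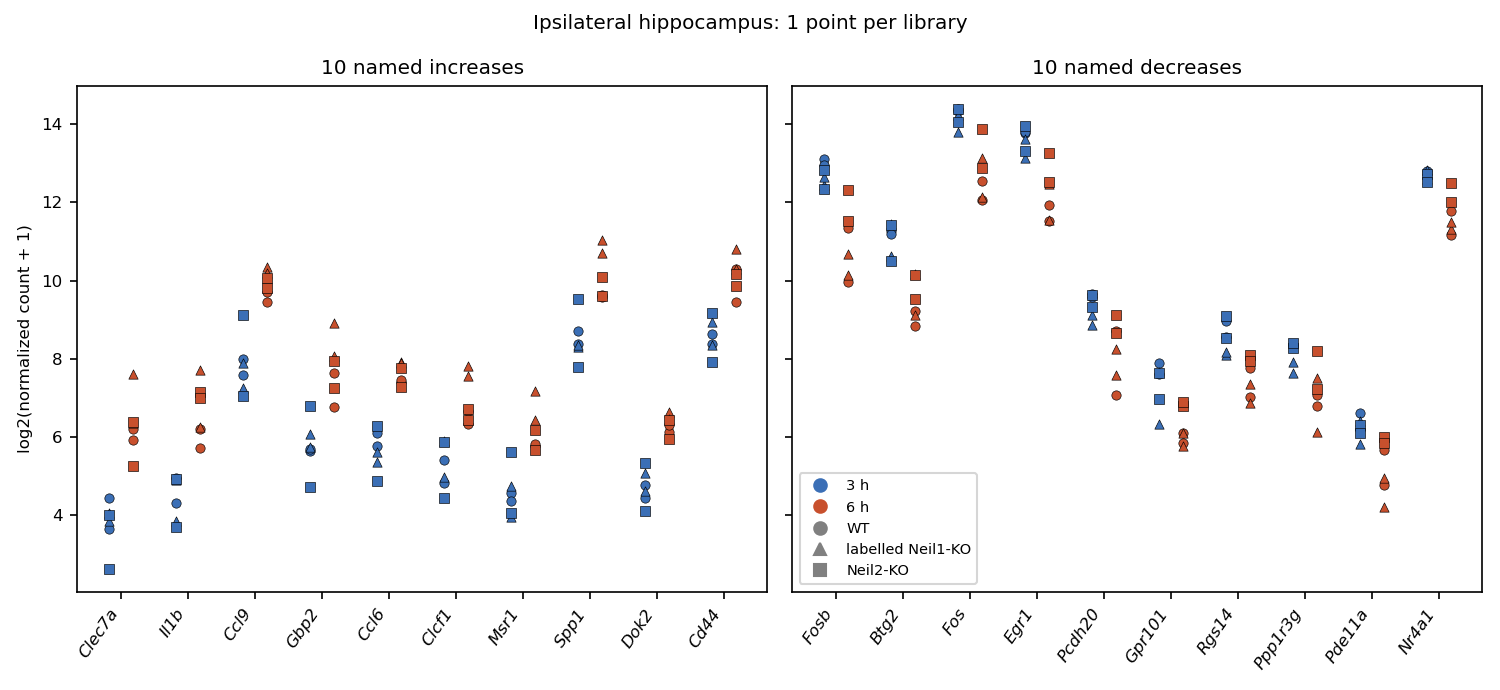
Level of the 20 named genes in each ipsilateral library, as log2(normalized count + 1), with 3 h in blue, 6 h in red and the genotype given by the marker shape. Among the increases the colours overlap for Gbp2, and among the decreases for Fos, Egr1, Pcdh20, Gpr101, Ppp1r3g and Pde11a.

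Of the 22 chemokine and cytokine genes tested, 5 rose (Il1b, Clcf1, Il11, Ccl12 and Ccl4), 17 were not called and no member fell. The share called was 22.7%, against 5.88% of all genes tested. The list's median log2 fold change was 0.60, and 18 of 22 members were above 0. Clcf1, a cytokine of the interleukin-6 family that acts through the ciliary neurotrophic factor receptor, had medians of 35.9 normalized counts at 3 h (20.9 to 58.3) and 102 at 6 h (79.0 to 224). It rose by 1.68 ± 0.26 with no overlap between times (limma adjusted p = 0.00702). Il11, another cytokine of that family, rose by 1.03 ± 0.21 (adjusted p = 0.0171), and its times overlapped (24.3 to 51.1 at 3 h, 46.9 to 96.3 at 6 h). Ccl12, a chemokine for monocytes, rose by 1.43 ± 0.32 from a median of 38.7 to 110 (adjusted p = 0.025). Ccl4, a chemokine that macrophages secrete, was already at a median of 369 at 3 h and stood at 755 at 6 h, a rise of 0.92 ± 0.21 (adjusted p = 0.0282). Other cytokine genes of the first wave did not pass: Ccl2, the monocyte chemoattractant, was 313 ± 110 at 3 h and 300.4 ± 114 at 6 h (SD, n = 6), and Tnf, tumour necrosis factor, was 18.4 ± 2.97 and 36.1 ± 17.9 (adjusted p = 0.0539). Without the pair of libraries that stood apart 11 members rose, among them Tnf, Il1a and Ccl3. Left out one at a time, the 12 libraries gave 2 to 10 increases.

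Among 19 genes of NF-kB, the transcription factor family that drives many cytokine genes, 3 rose and 1 fell. This was 21.1% of the list, against 5.88% of all genes tested. Bcl3, a nuclear co-regulator, lay at 44.5 to 87.9 normalized counts at 3 h (median 51.1) and at 92.2 to 142 at 6 h (median 110.5). It rose by 1.02 ± 0.15 (limma adjusted p = 0.00557). Rela, the p65 subunit, rose by 0.40 ± 0.07 from 704 to 809 at 3 h to 909 to 1137 at 6 h (adjusted p = 0.00853), and the times of neither gene overlapped. Nfkb1, the p105/p50 subunit, rose by 0.33 ± 0.08 (adjusted p = 0.0382). Socs3, a feedback inhibitor of cytokine receptors placed in this list, fell by 0.71 on the log2 scale (SE 0.18, adjusted p = 0.0363). The inhibitor genes Nfkbia and Tnfaip3 had log2 fold changes of 0.03 ± 0.11 and -0.03 ± 0.09 and did not pass. The list's median was 0.04. Without the pair of libraries that stood apart 6 members rose and 2 fell, and with 1 library left out 2 to 4 rose and 0 to 2 fell. Nfkb1 was called in 2 and Socs3 in 4 of these 12 fits, and Bcl3 and Rela in all of them.

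Several interferon-response genes were higher at 6 h, among them GTPases that interferons induce in cells as a defence against intracellular microbes. In the list of 23 interferon-response and antigen-presentation genes, 6 rose (Gbp2, Gbp3, Ifit1, Irf9, Ifit3 and Isg15), none fell, and 22 of 23 had a log2 fold change above 0 (median 0.46). The share called was 26.1%, against 5.88% of all genes tested. Gbp2, a guanylate-binding protein, ran from 25.3 to 111 normalized counts at 3 h (median 51.4) and from 107 to 485 at 6 h (median 222). The ranges overlapped slightly, and the rise was 1.99 ± 0.33 (limma adjusted p = 0.00835). Ifit1, an antiviral RNA-binding protein, went from 7.82 to 22.7 (median 15.8) to 23.0 to 80.5 (median 45.3), without overlap, a rise of 1.68 ± 0.34 (adjusted p = 0.0169). Irf9, the DNA-binding subunit of the complex that type I interferons activate, rose by 0.56 ± 0.13 (adjusted p = 0.0254), from 179 to 310.1 at 3 h to 319 to 375 at 6 h. The 6 increases of the list were 8 without the pair of libraries that stood apart and 2 to 9 with 1 library left out. Chosen after these values were seen, the 17 guanylate-binding protein and immunity-related GTPase genes tested gave 10 increases and no decrease. Over all genes tested, 3.24% were called higher. Irgm1, an immunity-related GTPase, had no overlap between 120 to 221 at 3 h and 283 to 439 at 6 h, and rose by 1.17 ± 0.15 (adjusted p = 0.00378). Irgm2 (38.0 to 139 at 3 h, 142 to 190.0 at 6 h) rose by 1.36 ± 0.24 (adjusted p = 0.0117). Igtp (26.9 to 61.5 at 3 h, 64.6 to 123 at 6 h) rose by 1.13 ± 0.22 (adjusted p = 0.0143), and its times did not overlap, like those of Irgm2. Gbp7 rose by 1.34 ± 0.22 (adjusted p = 0.00794), from a median of 95.4 to 232, and Gbp9, Gbp3, Gbp4, Gbp5 and Gbp2b also rose. Gbp2b was at 2.46 ± 2.55 at 3 h and 10.56 ± 4.9 at 6 h (SD, n = 6). It reached the filter's value of 10 only in 6 h libraries. Gbp6, Gbp8, Gbp10, Gbp11, Ifi47, Iigp1 and Tgtp1 did not pass. Members of these families are near-identical in places, so the split of reads between them is uncertain.

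The promoters of these GTPase genes are shown because they rose together and because a motif of interferon-activated factors lay close to their start. RefSeq promoter windows (250 bases before and 50 after the start, GRCm38.p6) were matched by symbol for 10 of the 17 GTPase genes tested, and 9 of the 10 held the interferon-stimulated response element, searched on both strands as GAAA, any 2 bases and GAAA. Of all 32851 windows, 3.44% held it. In these motif counts a gene counted if any of its windows matched, whereas the shares are of single windows. All 8 matched genes that rose held it (Gbp2, Gbp2b, Gbp3, Gbp5, Gbp7, Igtp, Irgm1 and Irgm2), as did 1 of the 2 that did not pass. The family was picked as one that interferons induce, and its members are near-identical in places. The shares therefore count related sequences and are not a test, and 2 genes are too few to compare with those that rose. The STAT site TTCNNNGAA, which may overlap the first motif, was held by 5 of the 10, against 8.3% of all windows. Of 2 further motifs searched, the AP-1 site TGANTCA was held by 3 of the 10, against 7.81% of all windows. The cAMP response element TGACGTCA was held by 0 of the 10, against 1.79%. The 250 bases before the start are printed 5′ to 3′ on the gene's own strand, with the element in capitals, for Gbp2 (chr3:142620413-142620662, plus strand), Gbp7 (chr3:142530086-142530335, plus strand), Irgm2 (chr11:58214727-58214976, plus strand) and Igtp (chr11:58199306-58199555, plus strand).
Gbp2: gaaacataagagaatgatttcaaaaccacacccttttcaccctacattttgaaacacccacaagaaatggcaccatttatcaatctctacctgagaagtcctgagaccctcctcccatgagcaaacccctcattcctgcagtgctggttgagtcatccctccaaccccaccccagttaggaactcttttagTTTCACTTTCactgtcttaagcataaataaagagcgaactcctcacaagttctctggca
Gbp7: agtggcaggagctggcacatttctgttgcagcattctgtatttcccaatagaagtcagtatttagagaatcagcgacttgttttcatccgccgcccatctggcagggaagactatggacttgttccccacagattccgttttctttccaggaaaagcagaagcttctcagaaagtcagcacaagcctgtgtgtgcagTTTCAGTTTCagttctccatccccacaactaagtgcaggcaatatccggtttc
Irgm2: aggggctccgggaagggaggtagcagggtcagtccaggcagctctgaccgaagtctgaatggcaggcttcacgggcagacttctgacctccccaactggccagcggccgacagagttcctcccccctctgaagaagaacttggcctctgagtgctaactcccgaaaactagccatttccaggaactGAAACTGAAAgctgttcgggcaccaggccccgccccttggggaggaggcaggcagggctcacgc
Igtp: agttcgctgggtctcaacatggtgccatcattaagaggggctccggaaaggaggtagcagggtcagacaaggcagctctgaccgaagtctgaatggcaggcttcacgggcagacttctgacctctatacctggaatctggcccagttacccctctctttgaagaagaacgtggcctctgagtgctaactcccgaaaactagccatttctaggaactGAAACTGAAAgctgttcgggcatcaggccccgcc
Counted from the start, the element began at base -59 in Gbp2, -53 in Gbp7, -64 in Irgm2 and -34 in Igtp. In Gbp2 and Gbp7 it was read on the opposite strand, and in Irgm2 and Igtp on the strand printed. A match describes the letters in these windows and does not show that a factor was bound.

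Genes of reactive astrocytes, the glial cells that change form and secretion after injury, were the list with the largest share of increases. Of 26 tested, 14 rose and none fell, all 26 had a log2 fold change above 0, and the median was 0.78. Cd44, the hyaluronan receptor, ran from 240 to 576 normalized counts at 3 h (median 364) and from 698 to 1775 at 6 h (median 1207). The times did not overlap, and Cd44 rose by 1.58 ± 0.22 (limma adjusted p = 0.00451). Osmr, the receptor of oncostatin M, went from 256 to 702 (median 371) to 647 to 1264 (median 1071), with overlap and a rise of 1.40 ± 0.22 (adjusted p = 0.00707). B3gnt5, a glycosyltransferase, rose by 1.14 ± 0.18 without overlap (382 to 833 at 3 h, 886 to 1644 at 6 h, adjusted p = 0.00798). Lgals3, the sugar-binding lectin galectin-3, rose by 1.37 ± 0.23 (54.4 to 152 at 3 h, 132 to 343 at 6 h, adjusted p = 0.00835). The intermediate filament genes differed among themselves. Vim (vimentin) rose by 0.85 ± 0.15 (adjusted p = 0.0109) and Nes (nestin) by 0.55 ± 0.10 (adjusted p = 0.012), and Gfap had a log2 fold change of 0.28 ± 0.12 that did not pass (adjusted p = 0.18). Timp1, an inhibitor of matrix metalloproteinases, and Fgf2, a growth factor, rose by 1.39 ± 0.26 and 0.95 ± 0.19, and Emp1, S1pr3, Ptx3, Cd109, Aspg and S100a10 rose as well. Lcn2, a secreted lipocalin, did not pass, at 127 ± 68.8 at 3 h and 116 ± 53.6 at 6 h (SD, n = 6). None of the 18 homeostatic astrocyte genes was called by limma, edgeR or DESeq2 (0 at an unadjusted p under 0.05), with a median of -0.06 and sums of 102100 to 162900 at 3 h and 91270 to 173100 at 6 h. Leaving out the pair that stood apart, 14 reactive genes rose (Aspg was then not called, adjusted p = 0.0716), and leaving out 1 library at a time gave 10 to 18.

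**Figure D3:**
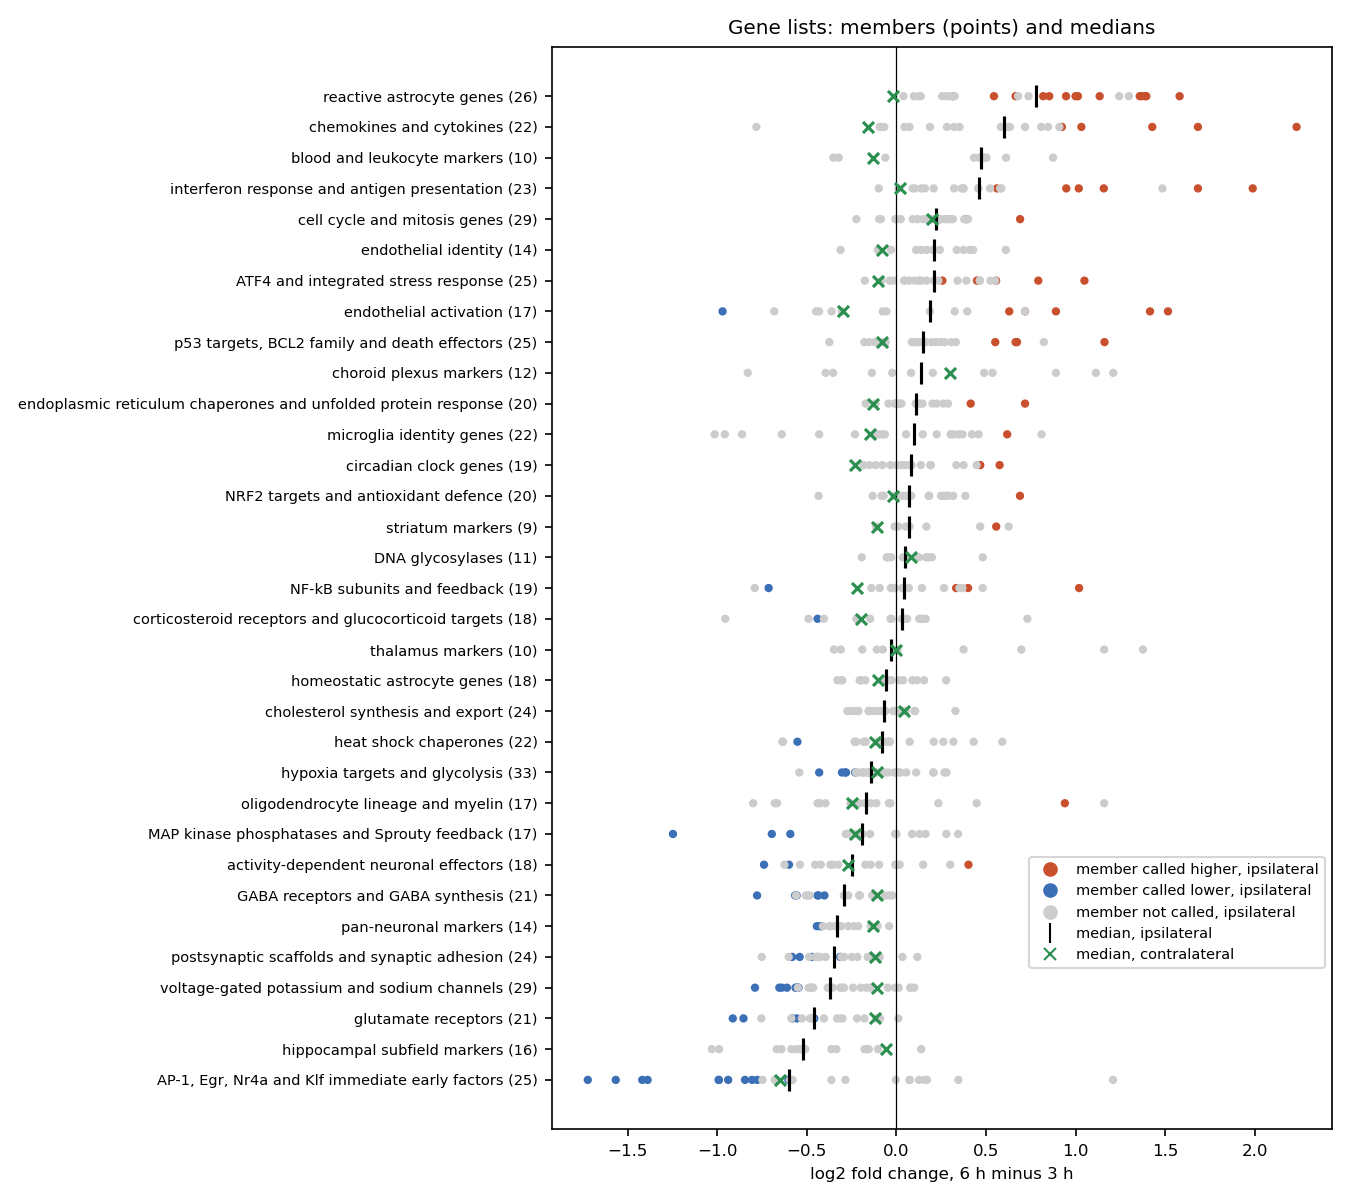
Log2 fold change (6 h minus 3 h) of every tested member of the 33 gene lists, 1 row per list with the number tested in brackets. Points are members on the ipsilateral side (red called higher, blue called lower, grey not called), black bars are their medians and green crosses are the contralateral medians. Reactive astrocyte genes have the highest ipsilateral median (0.78) and immediate early factors the lowest (-0.60).

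Vessel genes that respond to injury were higher at 6 h, in part. Of 17 endothelial activation genes 5 rose and 1 fell (median 0.19). Sox18, a transcription factor of endothelial cells, lay at 104 to 254 normalized counts at 3 h (median 163) and at 341 to 519 at 6 h (median 466). All 6 h libraries were above all 3 h libraries, and the rise was 1.42 ± 0.21 (limma adjusted p = 0.00535). Sele, the leukocyte adhesion molecule E-selectin, rose by 1.52 ± 0.30 from a median of 12.3 to 43.9 (adjusted p = 0.0167), and Icam1, another adhesion molecule, by 0.89 ± 0.19 from 286 to 542 (adjusted p = 0.0201). Sox17, a relative of Sox18, and Adamts4, a matrix protease, rose by 0.72 ± 0.16 and 0.63 ± 0.17. Plaur, the urokinase receptor, fell by 0.97 on the log2 scale (SE 0.25, adjusted p = 0.039). None of the 14 endothelial identity genes was called by limma or edgeR (4 at an unadjusted p under 0.05; 2 by DESeq2), with a median of 0.21. Their sums were 13230 to 16150 at 3 h and 11670 to 26010 at 6 h, the highest in labelled Neil1-KO replicate 2, and the part of this in the rise of the activation genes was not tested. In the other 4 libraries at 6 h, without the pair that stood apart, the sums were 14210 to 17130, and 4 activation genes rose and 2 fell, with Adamts4 not called (adjusted p = 0.0643). With 1 library left out 2 to 5 rose and 0 to 4 fell.

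Of 25 immediate early factors tested, 11 fell between the times, none rose, and the median log2 fold change was -0.60. Fosb, a component of the AP-1 transcription factor, ran from 5187 to 8762 normalized counts at 3 h (median 6845) and from 999 to 5110 at 6 h (median 2116). Every 6 h library was below every 3 h library, and the log2 fold change was -1.72 ± 0.30 (limma adjusted p = 0.00976). Fos, its relative, overlapped: 14200 to 21430 at 3 h (median 20000) and 4301 to 15150 at 6 h (median 6777), a change of -1.42 ± 0.24 (adjusted p = 0.00835). Egr1, a zinc-finger factor induced by activity and growth factors, also overlapped, with medians of 13330 and 4798 and a change of -1.39 ± 0.24 (adjusted p = 0.00916). Nr4a1, an orphan nuclear receptor, did not overlap (5907 to 7242 at 3 h, 2282 to 5730 at 6 h) and changed by -0.99 ± 0.16 (adjusted p = 0.00835). Btg2, an anti-proliferative cofactor induced by p53 and by activity, had 1459 to 2770 at 3 h (median 2402) and 459 to 1142 at 6 h (median 671), a change of -1.57 ± 0.24 without overlap (adjusted p = 0.00702). Egr2, Egr3, Jun, Ier2, Klf2 and Klf6 fell by 0.60 to 0.99 on the log2 scale. Not every early factor declined: Atf3, a stress-induced factor, stood at 3700 ± 495 at 3 h and 4021 ± 1200 at 6 h (SD, n = 6), and Myc, Maff, Ier3 and Klf10 did not pass. Without the pair that stood apart 10 fell (Klf2 had an adjusted p of 0.0605) and 1, Fosl1, rose, and with 1 library left out 5 to 12 fell.

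Among the 10 genes named for decreases, Btg2 alone had a full cAMP response element, TGACGTCA, in its RefSeq window (8 of the 10 were matched), and 1.79% of all 32851 windows held it. The 250 bases before its start (chr1:134079156-134079405, GRCm38.p6, minus strand) are printed on the gene's strand with the element, a palindrome that begins at base -166, in capitals.
Btg2: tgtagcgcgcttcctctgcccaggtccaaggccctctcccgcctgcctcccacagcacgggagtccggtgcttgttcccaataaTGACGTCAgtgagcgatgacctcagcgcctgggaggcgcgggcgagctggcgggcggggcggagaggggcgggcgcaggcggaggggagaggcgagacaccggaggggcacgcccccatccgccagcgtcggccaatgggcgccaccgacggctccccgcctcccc
As above, the match is a description of the letters. Other promoters of the named genes are not shown.

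**Figure D4:**
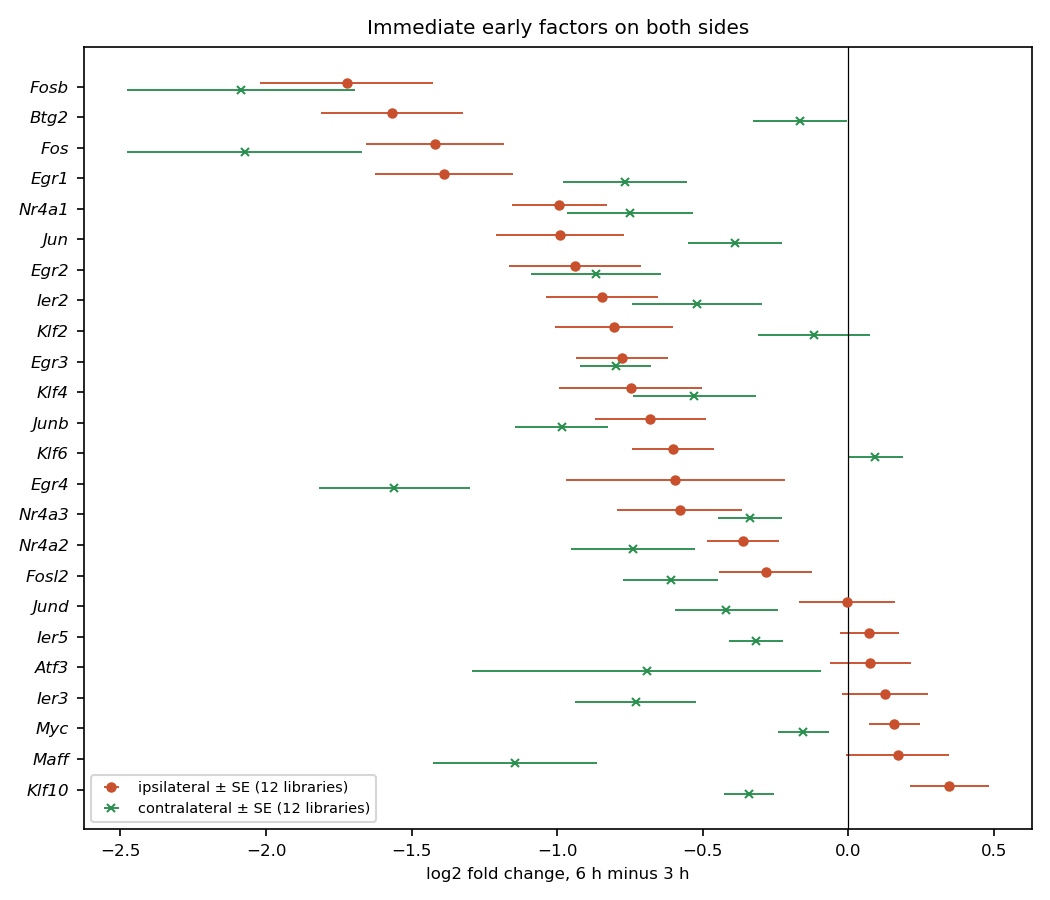
Log2 fold change (6 h minus 3 h) ± SE of the 24 immediate early factors tested on both sides, ipsilateral in red and contralateral in green, each from 12 libraries. Fosb and Fos are among the lowest on both sides, whereas Btg2 is at -1.57 ipsilaterally and -0.17 contralaterally.

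Of 17 genes that damp the MAP kinase pathway, which induces many immediate early genes, 3 fell and none rose. This was 17.6% of the list, against 5.88% of all genes tested. Dusp1, a dual-specificity phosphatase, went from 1793 to 3829 normalized counts at 3 h (median 2847) to 678 to 1937 at 6 h (median 1051), a change of -1.25 ± 0.27 (limma adjusted p = 0.0213). Dusp10 changed by -0.70 ± 0.14 (288 to 413 at 3 h, 160.2 to 276 at 6 h, adjusted p = 0.0169) and Dusp6 by -0.59 ± 0.14 (1948 to 2428 at 3 h, 913 to 1917 at 6 h, adjusted p = 0.0332), both without overlap. With the pair that stood apart left out, the same 3 fell and Dusp2, Dusp4, Dusp14 and Spred1 rose, and 0 to 3 fell with 1 library left out. Of 18 neuronal genes that act downstream of activity, Arc, a regulator of AMPA receptor traffic, fell by 0.74 on the log2 scale (SE 0.18, adjusted p = 0.0348) and Pcsk1, a prohormone protease, by 0.60 (SE 0.16, adjusted p = 0.0459). Pcsk1 was not called without the pair that stood apart (adjusted p = 0.0912) and was called in 2 of the 12 fits that left out 1 library, and the list's decreases were 0 to 3 in those fits. Pim1, a kinase of the same list, rose by 0.40 ± 0.10 (adjusted p = 0.0363). Bdnf, the neurotrophin, had a log2 fold change of -0.62 ± 0.23 that did not pass (adjusted p = 0.127).

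Some genes of synaptic transmission fell between the times, in lists of receptors, channels and scaffolds. All 21 genes of GABA receptors and GABA synthesis had a log2 fold change below 0 (median -0.29), and 6 fell. Gabrb1, the beta1 subunit of the GABA-A receptor, ran from 1318 to 2187 normalized counts at 3 h (median 1790) and from 790 to 1207 at 6 h (median 1057). It changed by -0.78 ± 0.10 without overlap (limma adjusted p = 0.00378). Of the other decreases, the subunit genes Gabra4 and Gabra5 and Gad2, which makes GABA, fell by 0.40 to 0.57 on the log2 scale. Among 21 glutamate receptor genes, 5 fell and 20 of 21 were below 0 (median -0.46). Gria3, an AMPA receptor subunit, overlapped little (1421 to 2175 at 3 h, 867 to 1492 at 6 h) and changed by -0.58 ± 0.09 (adjusted p = 0.00708). The NMDA receptor subunits Grin2a and Grin2b changed by -0.91 ± 0.20 (adjusted p = 0.0246) and -0.85 ± 0.22 (adjusted p = 0.0412), Gria2 by -0.46 ± 0.11 and the metabotropic receptor Grm5 by -0.56 ± 0.15. Grin1, the obligate NMDA receptor subunit, had -0.47 and did not pass (adjusted p = 0.14).

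Of 29 voltage-gated potassium and sodium channel genes 8 fell and none rose (median -0.37). Scn2b, a sodium channel beta subunit, went from 457 to 1565 normalized counts at 3 h (median 1150) to 233 to 792 at 6 h (median 709), with overlap and a change of -0.79 ± 0.12 (limma adjusted p = 0.00557). The potassium channel gene Kcnq5 changed by -0.65 ± 0.13 (adjusted p = 0.0169), and Kcnc2, Kcna4, Kcnd2, Scn2a and Scn8a fell as well. Of 24 scaffold and adhesion genes 4 fell, with Nlgn1, Nrxn3 and Dlgap1 among them (median of the list -0.35). Nlgn1, a neuroligin of excitatory synapses, had 929 to 1320 at 3 h and 522 to 862 at 6 h, a change of -0.58 ± 0.10 without overlap (adjusted p = 0.00877). Camk2a, the abundant kinase of the postsynaptic density, had -0.75 ± 0.21 and did not pass (adjusted p = 0.053).

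Of 14 pan-neuronal markers 3 fell, Snap25, Eno2 and Nefl, by 0.43, 0.44 and 0.42 on the log2 scale, and all 14 were below 0 (median -0.33). The summed level of the 14 was 148200 to 182800 normalized counts at 3 h (median 169900) and 92190 to 178100 at 6 h (median 147300). The 16 hippocampal subfield markers had a median of -0.52 with no call by limma or edgeR (7 at an unadjusted p under 0.05) and 1 by DESeq2, and their sums were 19330 to 22030 at 3 h and 10980 to 18800 at 6 h. The part of these marker levels in the receptor and channel decreases was not tested. Without the libraries that stood apart the counts were larger while the medians were nearer 0: 12 of each of the GABA, glutamate receptor, scaffold and channel lists fell, as did 9 pan-neuronal and 3 subfield markers, with medians between -0.32 and -0.25. With 1 library left out, the counts ran from 2 to 8 for GABA, 1 to 9 for glutamate receptors, 1 to 11 for scaffolds, 1 to 12 for channels, 0 to 7 for pan-neuronal and 0 to 4 for subfield markers.

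The remaining named decreases were single neuronal genes and 1 metabolic gene. Rgs14, a regulator of G-protein signalling known for its high level in hippocampal area CA2, went from 273 to 542 normalized counts at 3 h (median 374) to 116 to 272 at 6 h (median 190.5), a change of -1.06 ± 0.16 without overlap (limma adjusted p = 0.00652). Pcdh20, a protocadherin, changed by -1.14 ± 0.26 (adjusted p = 0.0272), Gpr101, an orphan receptor, by -1.10 ± 0.25 (adjusted p = 0.0273) and Ppp1r3g, a glycogen-targeting phosphatase subunit, by -1.01 ± 0.23 (adjusted p = 0.0275). Pde11a, a phosphodiesterase, went from a median of 74.4 to 39.8 (adjusted p = 0.0343). The times overlapped for these 4, and they were called in 7, 7, 6 and 4 of the 12 fits that left out 1 library. Rgs14 was called in all 12.

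Of 25 genes of ATF4 and the integrated stress response, which cells switch on when protein synthesis is restrained, 5 rose and none fell (median 0.21). Slc7a5, the large subunit of an amino acid exchanger, ran from 3544 to 5043 normalized counts at 3 h (median 4611) and from 5841 to 7220 at 6 h (median 6608), a rise of 0.56 ± 0.10 (limma adjusted p = 0.0093). Its partner Slc3a2 rose by 0.26 ± 0.07 (3934 to 4628 at 3 h, 4735 to 5881 at 6 h, adjusted p = 0.0472), and Atf5, a transcription factor, by 0.45 ± 0.09 (345 to 434 at 3 h, 462 to 608 at 6 h, adjusted p = 0.0167). The times did not overlap for any of the 3. Nupr1 and Trib3 rose by 1.05 ± 0.26 and 0.79 ± 0.21 with overlap. Atf4 itself was 4337 ± 454 at 3 h and 4555 ± 377 at 6 h (SD, n = 6), and Ddit3, the death-linked factor CHOP, had 0.34 ± 0.13 (adjusted p = 0.147). Of 20 endoplasmic reticulum genes Derl3 and Creld2 rose (0.72 ± 0.17 and 0.41 ± 0.11), which is 10% of that list, against 5.88% of all genes tested. Leaving out the pair of libraries that stood apart, 9 ATF4 genes and 5 endoplasmic reticulum genes rose, Ddit3 and the chaperone gene Hspa5 among them, and Nupr1 was not called (adjusted p = 0.0611). With 1 library left out, 1 to 8 ATF4 genes and 0 to 3 endoplasmic reticulum genes rose, and Slc3a2 was called in 3 of the 12 fits.

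Of 22 heat shock chaperones 1 was called (4.55%, near the 5.88% of all genes tested), and the median was -0.08. Dnajb1, an Hsp40 co-chaperone, went from 3219 to 4023 normalized counts at 3 h to 1917 to 3191 at 6 h, a change of -0.55 ± 0.11 without overlap (limma adjusted p = 0.0191). Hspa1a and Hspa1b, near-identical copies of inducible Hsp70 that may share reads, had -0.64 ± 0.26 and -0.63 ± 0.27 and did not pass. Of 33 hypoxia and glycolysis genes 5 fell and none rose (median -0.14): Bnip3, Pdk1, Pfkfb3, Pgam1 and Pfkl, with log2 fold changes between -0.43 and -0.23. Pfkfb3, which sets the pace of glycolysis, ran from 1851 to 2273 at 3 h and from 1263 to 1952 at 6 h (adjusted p = 0.0307). Vegfa and Slc2a1, further hypoxia targets, had -0.16 ± 0.10 and 0.11 ± 0.16 and did not pass. The 5 decreases were 0 to 7 with 1 library left out, and Pfkl was not called without the pair that stood apart (adjusted p = 0.0838).

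Of 25 p53 targets, BCL2 family members and death effectors 4 rose and none fell (median 0.15). The share called was 16%, against 5.88% of all genes tested. Bmf, a pro-apoptotic BCL2 family member, ran from 111 to 178 normalized counts at 3 h (median 128) and from 192 to 251 at 6 h (median 209.5), a rise of 0.67 ± 0.12 without overlap (limma adjusted p = 0.0117). Phlda3, a p53 target that restrains AKT, rose by 0.67 ± 0.14 (adjusted p = 0.0227), Eda2r, a death-domain receptor, by 1.16 ± 0.30 (adjusted p = 0.0406) and Tnfrsf12a, the receptor of TWEAK, by 0.55 ± 0.14 (adjusted p = 0.043). Cdkn1a and Bbc3, textbook p53 targets, had 0.15 ± 0.08 and 0.33 ± 0.22 and did not pass. Of 20 NRF2 and antioxidant genes 1 was called (5%, near the 5.88% of all genes tested). This was Mt2, a metallothionein, which rose by 0.69 ± 0.14 (adjusted p = 0.0181), and Hmox1, heme oxygenase-1, had 0.39 ± 0.11 (adjusted p = 0.0662). In the fit without the pair that stood apart 8 death genes rose, and 5 NRF2 genes rose and 1 fell. With 1 library left out, 1 to 7 death genes and 0 to 2 NRF2 genes rose, and Tnfrsf12a was called in 3 and Eda2r in 4 of the 12 fits.

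Single genes were called in lists whose share of calls was near the 5.88% of all genes tested. Sox10, the transcription factor of oligodendrocyte lineage cells, ran from 464 to 639 normalized counts at 3 h (median 578) and from 868 to 1401 at 6 h (median 1023), without overlap. It rose by 0.94 ± 0.11 (limma adjusted p = 0.00378), the only call among 17 oligodendrocyte and myelin genes (median -0.17). Mbp, which encodes myelin basic protein, had -0.40 ± 0.27 and did not pass. Summed oligodendrocyte markers were 13330 to 29770 at 3 h and 13100 to 33500 at 6 h. Without the libraries that stood apart, 6 of them were lower, among them Mbp, Mog, Mag, Mobp and Enpp6, while Sox10 rose by 0.90. Ccnd1, cyclin D1, ran from 572 to 760.1 at 3 h (median 669) and from 882 to 1245 at 6 h (median 1115), a rise of 0.69 ± 0.08 without overlap (adjusted p = 0.00378). Of the 29 cell cycle genes it belongs to, Mcm7 rose too (0.39 ± 0.10), and the others did not pass (median 0.22 ipsilaterally, 0.20 contralaterally).

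Of 19 clock genes Rorb and Cry1 rose (0.47 ± 0.10 and 0.58 ± 0.15), which is 10.5% of that list, against 5.88% of all genes tested. With 1 library left out 0 to 3 clock genes rose, and Cry1 was called in 3 of the 12 fits. Of 18 corticosteroid genes 1 was called (5.56%, near the 5.88% of all genes tested). This was Zbtb16, which fell by 0.44 on the log2 scale (SE 0.11, limma adjusted p = 0.034, and 0.0558 without the pair that stood apart). None of the 11 DNA glycosylase genes was called by limma, edgeR or DESeq2 (1 at an unadjusted p under 0.05), with log2 fold changes from -0.19 to 0.48, the highest in Neil3 (adjusted p = 0.174). None of 24 cholesterol genes, 12 choroid plexus markers or 10 thalamus markers was called by limma or edgeR (3, 0 and 4 at an unadjusted p under 0.05), and DESeq2 called 1 thalamus marker. Of 9 striatum markers Adora2a, an adenosine receptor, rose by 0.56 ± 0.14 (adjusted p = 0.0367), and it was not called without the libraries that stood apart (adjusted p = 0.0745).

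Fewer genes were called between the same times on the contralateral side. Of 17802 genes tested there 32 (0.18%) were called, 8 higher and 24 lower, and 0 of the 588 ipsilateral increases and 5 of the 478 decreases were called in the same direction. Under TMM scaling the contralateral split was 22 higher of 47, and it turned to 51 higher and 34 lower without Neil2-KO replicate 2 at 6 h and to 11 higher and 10 lower without Neil2-KO replicate 2 at 3 h. Of the contralateral decreases 4 were immediate early factors. Fosb had 192 to 3940 normalized counts at 3 h (median 1181) and 81.7 to 689 at 6 h (median 243) contralaterally, and its log2 fold change there was -2.09 ± 0.39 (limma adjusted p = 0.0449). Egr3, Egr4 and Junb fell on that side too, by 0.80, 1.56 and 0.98 on the log2 scale. The list of immediate early factors had medians of -0.65 contralaterally and -0.60 ipsilaterally. For the reactive astrocyte, chemokine and interferon lists the contralateral medians were -0.02, -0.16 and 0.02.

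The difference between the time effects of the sides was tested as an interaction over all 24 libraries. This fit took the libraries as independent, although Xist was high in the same-numbered libraries of both sides. With same-numbered libraries of both sides blocked as an animal, 370 genes were called. Of 18364 genes 348 (1.9%) were called, 263 with a more positive time difference ipsilaterally and 85 with a more negative one. The count was 549 without the libraries that stood apart and 63 to 1405 when each library was left out. The balance turned to 534 above 0 and 871 below without labelled Neil1-KO ipsilateral replicate 1 at 6 h. The genes named for this test were the 5 highest and 5 lowest called interactions among genes with a mean of 50 or more over the 24 libraries. Cd74, the invariant chain of MHC class II, had 47.1 to 78.6 normalized counts at 3 h and 118 to 206 at 6 h ipsilaterally, against 16.4 to 31.8 and 7.94 to 30.8 contralaterally. Its interaction was 1.56 ± 0.23 (limma adjusted p = 0.00509). Cxcl1, a neutrophil chemokine, had the largest among the genes that met the naming rule, 2.09 ± 0.47 (adjusted p = 0.0312), from 0.72 ipsilaterally and -1.37 contralaterally, where levels were 7.23 to 18.5 at 3 h and 1.22 to 8.93 at 6 h. Ccl9, Gbp2 and Cd44, which met the same rule, had 1.92, 1.76 and 1.60. Of the genes named for this test, only Cd44 and Cd74 were called in every interaction fit that left out 1 library. Outside the rule, the GTPase genes Igtp and Gbp2b had 1.61 (adjusted p = 0.0116) and 2.53 (adjusted p = 0.0502, not called). Among the negative interactions, Btg2 had -1.40 ± 0.31 (adjusted p = 0.0308), and contralaterally it lay at 259 to 514 at 3 h and 217 to 360 at 6 h. Pcdh20, the lymphatic growth gene Ccbe1, the cadherin Cdh9 and the zinc-finger gene Zkscan2 had -1.33, -0.93, -0.92 and -0.88, and Ccbe1 was not called without the libraries that stood apart (adjusted p = 0.0515). Of the reactive astrocyte list 7 members were called, of the immediate early list 4: Maff (1.31) and Klf10 (0.69) above 0, Btg2 and Klf6 (-0.69) below. For Fosb and Fos the interaction was 0.36 ± 0.44 (adjusted p = 0.731) and 0.66 ± 0.45 (adjusted p = 0.502), which does not show that the sides changed alike.

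Split by genotype, with 2 libraries per time, no gene was called by limma or edgeR for the time difference within any of the 3 genotypes. At an unadjusted p under 0.05 limma gave 1940, 3262 and 1674 genes, and DESeq2 called 118, 523 and 36. The time difference also did not differ between a knockout label and WT for any gene by limma or edgeR. Unadjusted, 1459 genes passed for labelled Neil1-KO minus WT (smallest adjusted p 0.052) and 390 for Neil2-KO minus WT (smallest adjusted p 1), and DESeq2 called 14 and 1. List medians are given side by side without a test. Immediate early factors had medians of -0.89 in WT, -1.03 under the Neil1-KO label and -0.01 with Neil2-KO. Fosb, for example, changed by -2.37, -2.13 and -0.67 in that order (SE 0.40 each), and the Neil2-KO difference from WT had a limma adjusted p of 1. Reactive astrocyte genes had 0.49, 1.07 and 0.60, and pan-neuronal markers -0.14, -0.59 and -0.26, likewise in that order. Labelled Neil1-KO at 6 h included the library with the lowest pan-neuronal sum. Its part in the labelled Neil1-KO medians was not tested.

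**Figure D5:**
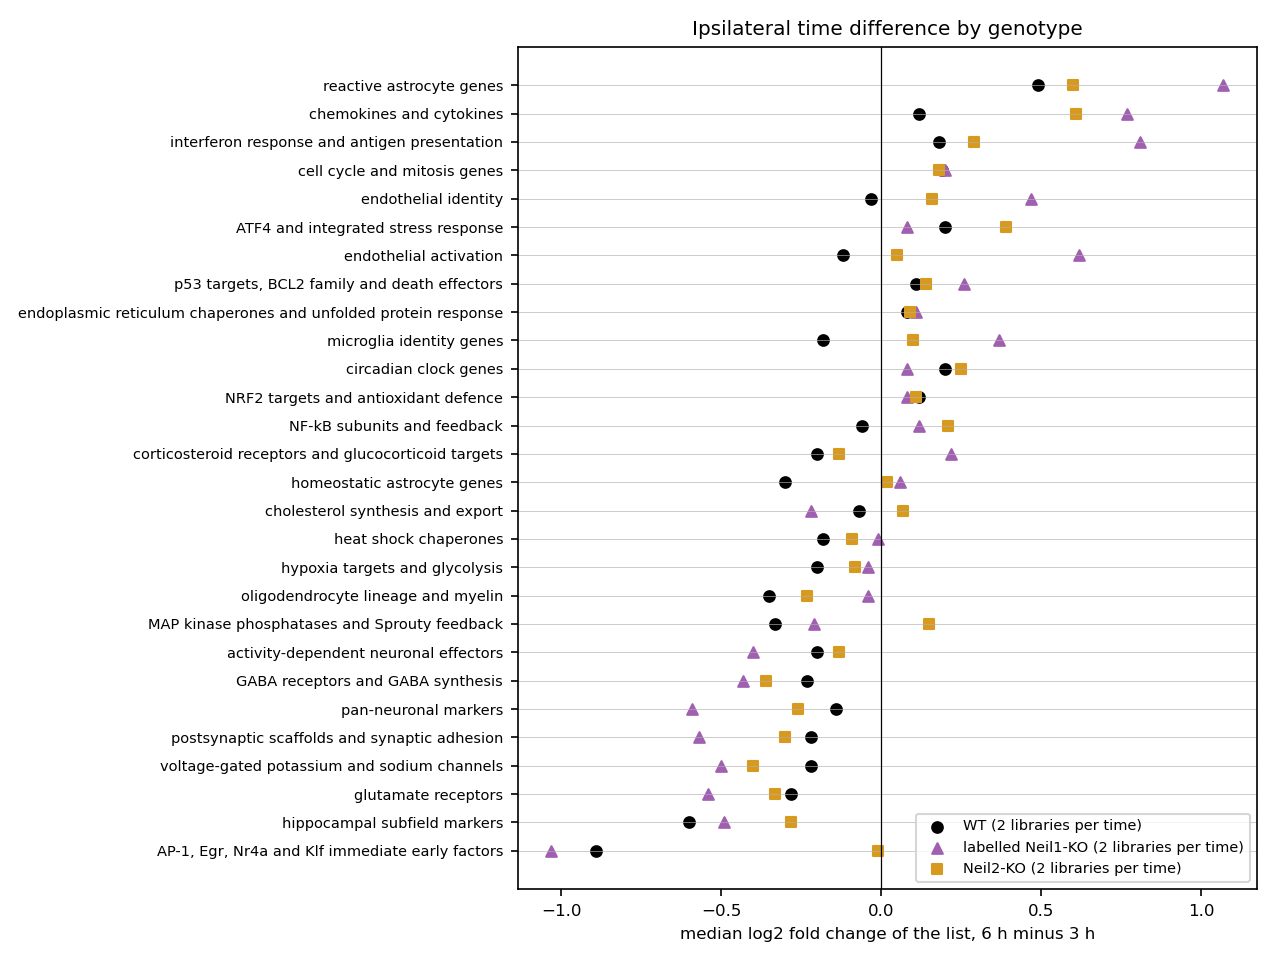
Median log2 fold change (6 h minus 3 h, ipsilateral) of the 28 gene lists with at least 14 tested members, within WT (circles), labelled Neil1-KO (triangles) and Neil2-KO (squares), each from 2 libraries per time. Labelled Neil1-KO has the highest median for reactive astrocyte genes (1.07), and Neil2-KO is near 0 for immediate early factors (-0.01).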

How the data were processed

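RNA of mouse hippocampus was sequenced in 24 libraries, for which the authors deposited a table of 1 signal value for each gene in each, their size-factor normalized read counts. The submitters' processing notes name Trim Galore, HISAT2, SAMtools, DESeq2 and featureCounts, with the build GRCm39 (mm39). The sources used here give no versions, settings or use of strand, so overlapping antisense genes cannot be told apart. Groups were taken from the sample titles; the 8 libraries titled NEIL2-KO carry the genotype tag NEIL1-KO. No value column was left unused.

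A gene was tested where 2 or more of a side's 12 libraries had a value of 10 or more. Log2(value + 1) was fitted with limma-trend (limma 3.58.1, R 4.3.3) with genotype as a block (8 residual degrees of freedom), two-sided, with Benjamini-Hochberg adjustment over all genes tested. Fold changes are on this scale and understate changes of genes with low counts. Whole reads were recovered from the deposited values (100% of values whole to 1e-06) for edgeR 4.0.16 (quasi-likelihood, TMM), which called 1112 genes, and DESeq2 1.42.0, which called 2071. Lines without a gene name, 9.15% to 12.48% of ipsilateral reads, were left out. On simulated data limma recovered 96% and 98% of 2-fold decreases and increases. Whether these shares hold for the ipsilateral libraries was not tested. There, 135 called genes rose by 2-fold or more and 14 fell by as much. Other changes of that size were not called, such as those of Selplg (-1.015, limma adjusted p = 0.0751) and Fosl1 (1.209, adjusted p = 0.1).

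The genes named for each direction were the 10 with the largest log2 fold change that were called and had a mean of 50 or more, leaving out predicted genes and those whose times overlapped within a genotype. For the interaction, 5 in each direction were taken, and in each of 33 lists as many as 4 members by adjusted p; further members were named after their values were seen, and a few members are not reported here. The members and lists were chosen with earlier results of these data known. Alternatives were a pseudocount of 5, no filter, other scalings, tests and covariates, all 24 libraries in 1 fit and leaving out libraries.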

Additional observations from a re-analysis of the deposited data

Results flagged for a closer look

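In 60 sets of 6 ipsilateral libraries of 1 time (the 20 named genes and 10 marker sums at each time), 3 had a library far from the others by Dixon's test at 0.625, and chance gives about 1 in 20. At 3 h, labelled Neil1-KO replicate 2 had the lowest summed oligodendrocyte markers (13330 normalized counts). At 6 h, labelled Neil1-KO replicate 2 had the lowest summed hippocampal subfield markers (10980). Also at 6 h, WT replicate 2 had the highest summed striatum markers (3010).

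The time difference differed between the sides for 348 genes by the interaction test with limma. Among the genes that met the naming rule, the largest positive interactions were those of Cxcl1 (2.09), Ccl9 (1.92), Gbp2 (1.76), Cd44 (1.60) and Cd74 (1.56). The most negative under the same rule were those of Btg2 (-1.40), Pcdh20 (-1.33), Ccbe1 (-0.93), Cdh9 (-0.92) and Zkscan2 (-0.88). Of these named genes, only Cd44 and Cd74 were called in every interaction fit that left out 1 library.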

How the results depend on the processing

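Of the genes named for the size of their change or their adjusted p, all of which were called, none changed sign under any alternative run. Calls were less stable. In 24 alternative runs of the ipsilateral comparison, Pcsk1, Slc3a2 and Tnfrsf12a lost the call in 15, Nfkb1 in 14 and Adora2a and Creld2 in 13. Clec7a, Il1b, Fos and Egr1 kept it in all 24. With 1 library left out, Cd68, Mcm7, Pim1, Grin2b, Gabra5, Snap25, Eno2 and Dusp6 were called in 4 of the 12 fits. Among members named without a call, Ccl2, Lcn2, Nfkbia, Slc2a1 and Ier3 changed sign without the pair of libraries that stood apart (0.21, -0.34, -0.015, -0.03 and -0.04 on the log2 scale). The count of 1066 ipsilateral calls became 2071 with DESeq2, 2329 with all 24 libraries in the fit (949 higher, 1380 lower), 508 with a sex term from Xist and 281 without the 3 libraries with high Xist. It became 1793 without the pair of libraries that stood apart, an alternative added after seeing the data, like the one on Xist. It ran from 261 to 1368 with 1 library left out: 281 without WT 3 h replicate 1, 568 without WT 3 h replicate 2, 441 without WT 6 h replicate 1, 646 without labelled Neil1-KO 3 h replicate 2, 261, 425 and 460 without Neil2-KO 3 h replicate 1, 6 h replicate 1 and 6 h replicate 2. Pseudocount, filter, edgeR, TMM, a choroid plexus term and 6 group means gave 716 to 1131. With a replicate block 208 ipsilateral genes (170 higher, 38 lower) and 0 contralateral genes were called, 0 at each genotype contrast, and 370 interactions with animal as the block; same-numbered libraries did not deviate together (correlations -0.351 to -0.008 ipsilaterally and -0.112 to 0.066 contralaterally), so the numbers do not pair times. The contralateral count of 32 became 417 with DESeq2, 62 with all 24 libraries, 4 with the sex term, 80 with the choroid plexus term, 227 with 6 group means and 0 to 85 with 1 library left out. The interaction count of 348 became 798 with DESeq2, 549 without the pair and 63 to 1405 with 1 library left out (63 without WT ipsilateral 3 h replicate 1, 1405, of which 534 were above 0 and 871 below, without labelled Neil1-KO ipsilateral 6 h replicate 1; 17 of 24 libraries moved it by over 1.5 times). For labelled Neil1-KO minus WT the count of 0 became 1 with no filter, 14 with DESeq2 and 0 to 65 with 1 library left out; for Neil2-KO minus WT it became 1 with DESeq2 and 0 to 5. Within WT, labelled Neil1-KO and Neil2-KO it became 118, 523 and 36 with DESeq2, and 0 to 209, 0 to 2417 and 0 to 14 with 1 library left out, the highest without WT 6 h replicate 1, labelled Neil1-KO 6 h replicate 1 and Neil2-KO 3 h replicate 2. The cause of these shifts was not tested. The lowest counts of the reactive astrocyte, immediate early, chemokine, interferon, scaffold and channel lists came without WT or Neil2-KO replicate 1 at 3 h. Without the 3 libraries with high Xist, 6 reactive astrocyte genes and 1 interferon-response gene rose and 6 immediate early factors fell.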

Other observations

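Some of the largest changes fell outside the rule for named genes and were picked after their values were seen. Mmp12, a macrophage elastase, lay at 1.89 to 8.51 normalized counts at 3 h and 16.5 to 158 at 6 h and rose by 2.86 ± 0.40 on the log2 scale (limma adjusted p = 0.00466). Gpr84, a receptor for medium-chain fatty acids on myeloid cells, lay at 5.60 to 14.8 and 41.8 to 108 and rose by 2.74 ± 0.24 (adjusted p = 0.000783, the smallest of all genes). Tlr1, a Toll-like receptor, lay at 7.45 to 39.7 and 62.5 to 127 and rose by 2.43 ± 0.32 (adjusted p = 0.00378). All 3 had means under 50, no overlap between times, and calls in all 12 fits that left out 1 library. Mmp12 reached the value required by the filter on low values only in 6 h libraries, so it entered the test through that group alone. Hes5, a target of Notch signalling in astrocyte precursors, had 198 to 1214 at 3 h and 57.9 to 409 at 6 h, a change of -2.22 ± 0.47 (adjusted p = 0.0194) that was called in 9 of the 12 fits. Ccn1, a matricellular protein gene induced early by growth factors, had 7755 to 14600 at 3 h and 1906 to 9053 at 6 h, a change of -1.66 ± 0.31 (adjusted p = 0.014). Both overlapped between times.

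Other increases, also picked after their values were seen, belonged to none of the lists. All but Neat1 had no overlap between times. Etv6, a transcriptional repressor, ran from 352 to 567 normalized counts at 3 h and from 755 to 893 at 6 h, a rise of 0.93 ± 0.12 (limma adjusted p = 0.00378). Pdzrn3, a ubiquitin ligase, ran from 570 to 779 and from 1021 to 1386, a rise of 0.77 ± 0.10 (adjusted p = 0.00378). On the contralateral side Pdzrn3 changed by -0.54, and its interaction of 1.31 had the smallest adjusted p of that test (0.000709). Man1c1, a mannosidase of the Golgi, ran from 439 to 593 and from 691 to 904, a rise of 0.72 ± 0.09 (adjusted p = 0.00378). Neat1, the long noncoding RNA that builds paraspeckles, overlapped (724 to 2065 at 3 h, 1685 to 4043 at 6 h) and rose by 1.28 (adjusted p = 0.00916).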
